A study of Mus musculus with 10 samples.

Results

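The genes described are the effectors of microRNA silencing: the 4 Argonaute genes Ago1, Ago2, Ago3 and Ago4 and the 3 Tnrc6 genes Tnrc6a, Tnrc6b and Tnrc6c. They were chosen by symbol. Of these 7 genes, 6 were rows of a table of 11011 genes, all 6 passed the filter on low counts, and Ago4 was not analysed here. The measurement was ribosome profiling, which sequences the pieces of mRNA that ribosomes cover and so reads out how many ribosomes sit on the coding sequence of a gene. A change in a footprint count can come from the amount of mRNA or from the ribosomes per mRNA, and these libraries cannot tell the 2 apart.

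Libraries were made from mouse embryonic stem cells of the line E14, of 129/Ola background, grown in serum with LIF without feeder cells. There were 5 groups of 2 libraries: Dgcr8 knockout, Drosha knockout, Dicer knockout, an Ago1 and Ago2 double knockout, and wild type (WT). The sources used here do not say how the knockouts were made, whether each is 1 clone, or whether the libraries of a group came from separate cultures, so the p-values cover the spread between these libraries alone. Groups are named below by the label of the library.

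MicroRNAs are cut from a nuclear hairpin by the complex of Drosha and its RNA-binding partner Dgcr8, and cut again in the cytoplasm by Dicer. The mature strand is bound by an Argonaute protein and guides it to matching sites in mRNAs, mostly in the 3' UTR, through the seed at its 5' end. Argonaute then binds a Tnrc6 (GW182) protein, which recruits the CCR4-NOT and PAN2-PAN3 deadenylases that shorten the poly(A) tail and lead to decapping and decay. Among the mammalian Argonautes, Ago2 is known as the one with efficient slicer activity, whereas all of them can bind microRNAs.

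The targeted genes were read first, as CPM, the count scaled to the size of the library. Ago2 had 14.9 and 6.61 CPM in the Ago-labelled libraries, against 81.9 and 81.9 CPM in WT. Ago1, the other gene named in that label, had 27.0 and 10.7 CPM there, against 14.7 and 14.3 CPM in WT. Its counts thus lay on either side of WT and left the label unchecked for this gene. Drosha had 24.3 and 34.5 CPM in the Drosha-labelled libraries, against 177 and 178 CPM in WT, and Dicer1 had 15.8 and 22.1 CPM in the Dicer-labelled libraries, against 122 and 124 CPM in WT. Dgcr8 had 145 and 146 CPM in the libraries labelled Dgcr8 knockout, against 32.7 and 33.1 CPM in WT, which went against the label. The gene was higher in the other knockouts too, at 169 and 197 CPM in the Drosha-labelled libraries, 64.5 and 76.1 in the Dicer-labelled and 74.6 and 63.5 in the Ago-labelled, none of which overlapped WT. Against WT it rose by log2 2.14 (adjusted p = 0.015 by edgeR) under its own label, 2.48 (0.0028) for Drosha, 1.09 (0.021) for Dicer and 1.07 (0.047) for Ago. Without WT replicate 2 none of these passed, with adjusted p of 0.44, 0.098, 0.18 and 0.42, and without WT replicate 1 they were 0.24, 0.053, 0.15 and 0.27. The call under its own label was also lost without Dgcr8 replicate 2 (0.083) and in a fit of the groups compared alone (0.098), that for Dicer without either Dicer replicate (0.089 and 0.13), and that for Ago in 9 of 17 alternatives. A count per gene cannot show whether an exon is missing, and the label could not be checked further.

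Total counts ran from 1754710 to 80850950, a 46.1-fold range. The shallowest libraries were Dicer replicate 2 and both Drosha-labelled ones. Pluripotent stem cell markers were present in every library. The 16 markers summed to 6429 to 6591 CPM in the Dgcr8-labelled libraries, 6992 to 7513 in the Drosha-labelled, 6641 to 7581 in the Dicer-labelled, 6158 to 6737 in the Ago-labelled and 6700 to 6958 CPM in WT, and none was at 0. These sums hide changes of single markers. By edgeR at adjusted p under 0.05, Klf2 was higher for Drosha, Dicer and Ago against WT (log2 2.20, 2.36 and 2.11). Klf4 was lower in the same order (-1.52, -2.91 and -1.62), as was Lin28a for Dicer (-3.33). No other marker passed in these comparisons, and none for the Dgcr8 label. How the Klf2 and Klf4 results depend on single libraries was not examined. Markers of primitive endoderm, a cell type that arises in such cultures, had lower sums in every knockout library than in WT. Of 16 markers 13 were in the table, and they summed to 2861 to 8653 CPM in the Dgcr8-labelled libraries, 2753 to 3427 in the Drosha-labelled, 2222 to 3044 in the Dicer-labelled and 2122 to 3629 in the Ago-labelled, against 13197 to 14425 CPM in WT. The Dgcr8 sum of 8653 CPM was that of replicate 1. By edgeR 0, 6, 11 and 10 of the 13 were called lower than in WT for Dgcr8, Drosha, Dicer and Ago. Beside these stood 0.0182%, 0.966%, 3.76% and 0.902% of all genes. Gata6 was at 0 in Drosha replicate 1, both Dicer-labelled libraries and Ago replicate 1, and Sox17 in Dicer replicate 2 and Ago replicate 1, against 17.1 to 46.6 CPM for these genes in WT. Of 10 trophectoderm markers 5 were in the table, the keratins Krt7, Krt8, Krt18 and Krt19 and Tfap2c. Cdx2, Eomes, Elf5, Hand1 and Gata3 were not. The 5 summed to 157 to 228, 375 to 377, 618 to 857 and 184 to 205 CPM in the same order of knockouts, against 150 to 182 CPM in WT. Tfap2c was not called against WT in any knockout. The 2-cell-like markers in the table, 2 of 7 listed, summed to 0.557 to 0.996, 25.3 to 36.3, 16.0 to 23.1 and 15.1 to 71.2 CPM, against 0.332 to 1.29 CPM in WT. Of 10 fibroblast markers 4 were in the table, with sums of 61.4 to 173, 73.0 to 106, 41.4 to 85.4 and 85.8 to 158 CPM, against 220 to 248 CPM in WT. Single genes did not all follow the sums. By edgeR 3 of the 4 were called lower in Dicer, beside 3.76% of all genes, and 0 in the other knockouts. The log2 difference from WT was above 0 for 2 of the 4 in Ago and 1 in Dgcr8. The part of these cell types in the results below was not tested.

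Sequences of the microRNAs whose seed sites overlap in the 3' UTRs of these genes are shown because they let the sites of called and uncalled genes be set side by side. MicroRNA levels were not measured here. The mature strands, from RefSeq on GRCm38.p6 and written 5' to 3', carry the seed, bases 2 to 8, in capitals.
miR-19b-3p: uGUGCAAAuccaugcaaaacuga
miR-130a-3p: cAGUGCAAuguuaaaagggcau
miR-148a-3p: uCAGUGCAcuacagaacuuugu
miR-17-5p: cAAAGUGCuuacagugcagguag
miR-26a-5p: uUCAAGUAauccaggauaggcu
miR-294-3p: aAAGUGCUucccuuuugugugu
The seeds of miR-19b, miR-130a and miR-148a are offset against each other, so that 1 stretch of 9 bases, TTTGCACTG, pairs with all 3.

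All 3 Tnrc6 genes held that 9-base stretch in the longest annotated 3' UTR. The sites are given on the coding strand of GRCm38 with flanks, and the stretch is in capitals.
Tnrc6a, chr7:123193316-123193340, plus strand: cttttaccTTTGCACTGagtgatgt
Tnrc6b, chr15:80929880-80929904, plus strand: taactttgTTTGCACTGggtgtgtt
Tnrc6c, chr11:117761788-117761812, plus strand: cttctaacTTTGCACTGaggtgtct
The stretch lay 373, 412 and 945 bases into the 3' UTR. It occurred in 1.81% of 10967 3' UTRs searched, and in 4.11% of the 2604 that were at least 2345 bases long, the length of the Tnrc6a 3' UTR.

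Tnrc6a and Tnrc6b also shared a longer stretch around a miR-26 site, TACTTGAATCATG, in which the first 7 bases pair with the miR-26a seed.
Tnrc6a, chr7:123193093-123193121, plus strand: agtttgaaTACTTGAATCATGcaggccaa
Tnrc6b, chr15:80929706-80929734, plus strand: tcttgaaaTACTTGAATCATGaacgccaa
The stretch was taken as the longest run that these 2 3' UTRs share from a miR-26 site on, so both hold it by construction. Of 10967 3' UTRs these were the 2 that held all 13 bases, which is therefore no test of the stretch. The 7-base miR-26 site itself was in 11.5% of all 3' UTRs and in 26.9% of the long ones. It was also in Tnrc6c and Ago3, which were not called in any comparison, and not in Ago1 or Ago2.

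Among the Argonautes, Ago1 and Ago3 held the 10-base stretch TTTGCACTTT, which pairs with the seeds of miR-19b, miR-130a and miR-17.
Ago1, chr4:126438522-126438547, minus strand: cattgacaTTTGCACTTTcagacgtg
Ago3, chr4:126343692-126343717, minus strand: cagggaacTTTGCACTTTgtaagtca
Ago3, chr4:126338991-126339016, minus strand: gtgcaactTTTGCACTTTgcccagat
It was in 0.903% of all 3' UTRs and in 2.34% of the long ones. All these stretches were chosen after the sites had been seen, and a match of letters does not show that a site is used.

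**Figure D1:**
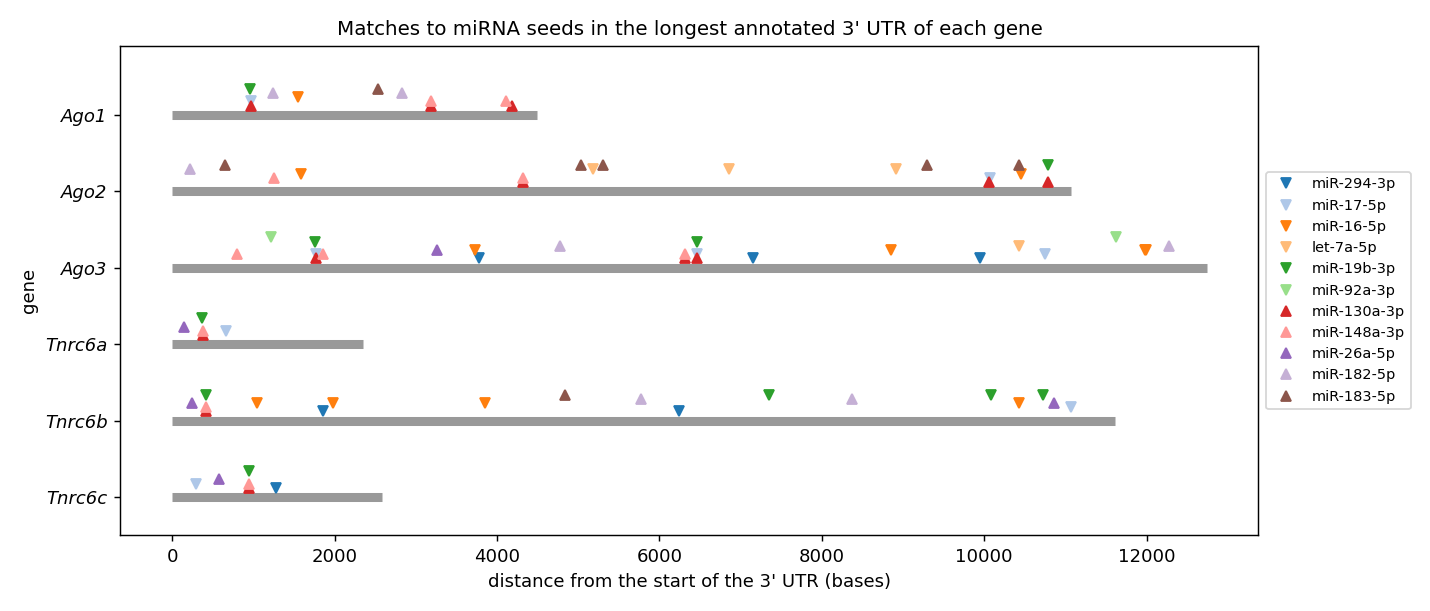
Places of 7-base seed sites of 11 microRNAs (coloured triangles) along the longest annotated 3' UTR (grey bars) of each gene, with the distance from its start in bases on the x axis. The 3' UTRs run between 2345 bases in Tnrc6a, with 5 sites, and 12742 bases in Ago3, with 24.

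The number of sites followed the length of the 3' UTR. Ago3, with 12742 bases, had 24 sites of the 11 seeds searched, Ago2 had 18 in 11064 bases, Tnrc6b 18 in 11609, Ago1 11 in 4491, Tnrc6c 6 in 2588 and Tnrc6a 5 in 2345 bases, against a median length of 1170 bases for all genes. Sites for miR-19b, miR-130a, miR-148a and miR-17 were in all 6 genes measured, and in 29.2%, 26.3%, 32.8% and 32.9% of long 3' UTRs. Long 3' UTRs are those of at least 2345 bases, so these shares are not matched to the far longer Ago2, Ago3 and Tnrc6b. In Tnrc6a and Tnrc6c the sites of miR-19b, miR-130a and miR-148a overlap in the stretch TTTGCACTG and are not independent. Whether the 6 genes hold more sites than other 3' UTRs of their length was not tested. The site of miR-294, AGCACTT, whose family is abundant in embryonic stem cells, was found 3 times in Ago3, 2 times in Tnrc6b and once in Tnrc6c, and in 40% of long 3' UTRs. This match to the full seed was not found in Ago1, Ago2 or Tnrc6a. The miR-17 site in all 6 genes, GCACTTT, holds GCACTT, which pairs with all but the last base of the miR-294 seed. Shorter matches to miR-294 were thus present in these genes too, and were not counted.

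Footprints of Ago1, Tnrc6a and Tnrc6b were higher in the Drosha- and Dicer-labelled libraries than in WT, whereas no call was made for Ago3 and Tnrc6c in any comparison. Tnrc6a and Tnrc6b were also higher in the Ago-labelled libraries, where Ago2 was lower. Calls are adjusted p-values under 0.05 from edgeR's quasi-likelihood test with Benjamini-Hochberg adjustment over all 10978 genes tested. In Drosha against WT 3 of the 6 genes were higher and 0 lower, with 2.48% of all genes called higher and 0.966% lower. In Dicer against WT 3 were higher and 0 lower, with 7.35% of all genes called higher and 3.76% lower. In Ago against WT 2 were higher and 1 lower, with 1.98% and 0.902% called higher and lower among all genes. In Dgcr8 against WT 0 of the 6 were called in either direction, with 0.0547% of all genes called higher and 0.0182% lower. There were 1077 genes with an unadjusted p under 0.05 in that comparison. Over log2 CPM, Dgcr8 replicate 1 correlated more with WT replicates 1 and 2 (Pearson r = 0.9585 and 0.9469) than with Dgcr8 replicate 2 (0.9277). Dgcr8 replicate 2 correlated with the WT libraries at 0.9112 and 0.9089. The part of this likeness to WT in the lack of calls for the Dgcr8 label was not tested. The median log2 fold change of the 6 genes was 0.42, 1.34, 1.25 and 0.45 in Dgcr8, Drosha, Dicer and Ago against WT, beside 0.02, -0.0079, -0.0035 and 0.04 over all genes. The 4 comparisons share the same WT libraries. Whether groups of 2 libraries overlap is given throughout as a description. The share of all genes without overlap was not computed, so a lack of overlap is not read as a difference.

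**Figure D2:**
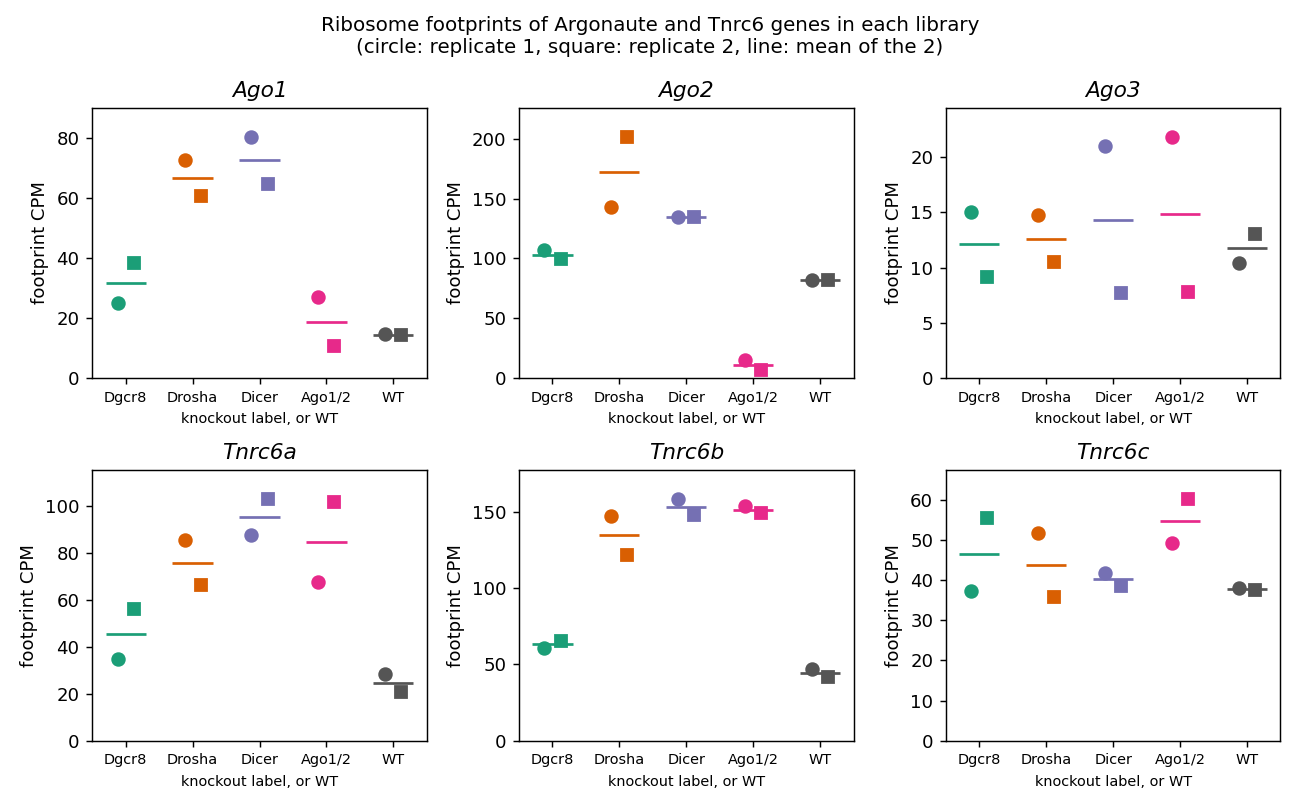
Footprint CPM of each gene (y axes) in each library by label (x axes). Circles are replicate 1, squares replicate 2 and lines the mean of the 2. In Tnrc6a and Tnrc6b every knockout library lies above both WT libraries, and in Ago2 the Ago-labelled libraries, at 14.9 and 6.61 CPM, lie below all others.

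Ago1 (ENSMUSG00000041530, chr4:126435012-126468583, minus strand) encodes an Argonaute that binds microRNAs. It lies between Ago3 and Ago4 on chromosome 4. It had 24.9 and 38.3 CPM in the Dgcr8-labelled libraries, 72.8 and 60.7 in the Drosha-labelled, 80.5 and 64.5 in the Dicer-labelled and 27.0 and 10.7 in the Ago-labelled, against 14.7 and 14.3 CPM in WT. Every library labelled Dgcr8, Drosha or Dicer lay above both WT libraries, and the Ago-labelled ones fell on either side. In order of level, Dicer and Drosha overlapped each other, Dgcr8 came next without overlap with them and overlapped the Ago-labelled libraries, and these in turn overlapped WT.

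Against WT, Ago1 rose 4.60-fold in the Drosha-labelled libraries (log2 2.20, SE 0.42, adjusted p = 0.022 by edgeR) and 5.02-fold in the Dicer-labelled (log2 2.33, SE 0.42, adjusted p = 0.0062). In the Dgcr8-labelled libraries the log2 difference was 1.11 (SE 0.41, adjusted p = 0.39) and in the Ago-labelled 0.37 (SE 0.40, adjusted p = 0.67). Without replicate 1 of the Ago-labelled libraries the last value was -0.44. The Drosha call was lost without Drosha replicate 1 (adjusted p = 0.074), WT replicate 1 (0.14) or WT replicate 2 (0.21). The Dicer call was lost without Dicer replicate 1 (0.051), WT replicate 1 (0.052) or WT replicate 2 (0.080).

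Ago2 (ENSMUSG00000036698, chr15:73095844-73184935, minus strand) encodes the slicing Argonaute. It had 107 and 99.8 CPM in the Dgcr8-labelled libraries, 143 and 202 in the Drosha-labelled, 135 and 135 in the Dicer-labelled and 14.9 and 6.61 in the Ago-labelled, against 81.9 and 81.9 CPM in WT. All libraries labelled Dgcr8, Drosha and Dicer lay above WT, and both Ago-labelled libraries lay below it. Ago2 fell 7.68-fold in the Ago-labelled libraries (log2 -2.94, SE 0.38, adjusted p = 0.0059 by edgeR), a call that was lost without WT replicate 2 (adjusted p = 0.062). Without Ago replicate 1 the log2 difference was -3.63. The differences elsewhere were not called. The log2 difference from WT was 0.34 (SE 0.35, adjusted p = 0.83) under the Dgcr8 label, 1.08 (SE 0.35, adjusted p = 0.12) for Drosha and 0.72 (SE 0.35, adjusted p = 0.22) for Dicer. The Drosha value passed with DESeq2 (adjusted p = 0.046) and without Ago replicate 1 (0.044) or 2 (0.045), and the Dicer value passed in a fit of the groups compared alone (0.023).

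Ago3 (ENSMUSG00000028842, chr4:126331704-126429556, minus strand) had low footprint counts. It had 15.1 and 9.16 CPM in the Dgcr8-labelled libraries, 14.8 and 10.5 in the Drosha-labelled, 21.0 and 7.72 in the Dicer-labelled and 21.9 and 7.82 in the Ago-labelled, against 10.4 and 13.1 CPM in WT. Every group overlapped WT. The values rest on as few as 14 reads in Dicer replicate 2 and 24 and 28 in the Drosha-labelled libraries. The log2 difference from WT lay between 0.06 in Dgcr8 (SE 0.55, adjusted p = 0.99) and 0.34 in Dicer (SE 0.57, adjusted p = 0.75). Replicates also differed in the deeper Ago-labelled libraries, which held 309 and 264 reads of Ago3.

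Tnrc6a (ENSMUSG00000052707, chr7:123123885-123195296, plus strand) encodes GW182, the scaffold between Argonaute and the deadenylases. It had 34.8 and 56.4 CPM in the Dgcr8-labelled libraries, 85.5 and 66.4 in the Drosha-labelled, 87.8 and 103 in the Dicer-labelled and 67.6 and 102 in the Ago-labelled, against 28.3 and 20.9 CPM in WT. No knockout library overlapped WT. The Ago-labelled libraries overlapped both the Drosha- and the Dicer-labelled ones, and Dicer lay above Drosha. It rose 3.09-fold in Drosha (log2 1.63, SE 0.35, adjusted p = 0.030 by edgeR), 3.88-fold in Dicer (log2 1.95, SE 0.35, adjusted p = 0.0055) and 3.45-fold in Ago (log2 1.79, SE 0.34, adjusted p = 0.021). In Dgcr8 the log2 difference was 0.88 (SE 0.34, adjusted p = 0.42). The Drosha call was lost without either Drosha replicate (adjusted p = 0.10 and 0.063), either Dicer replicate (0.050 and 0.052) or WT replicate 1 (0.14) or 2 (0.30). The Dicer call was lost without WT replicate 2 (0.096), and the Ago call without Ago replicate 2 (0.071) or WT replicate 1 (0.11) or 2 (0.30).

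Tnrc6b (ENSMUSG00000047888, chr15:80711313-80941085, plus strand), a paralog with the same role, had 61.0 and 65.3 CPM in the Dgcr8-labelled libraries, 147 and 122 in the Drosha-labelled, 158 and 148 in the Dicer-labelled and 154 and 149 in the Ago-labelled, against 47.0 and 41.7 CPM in WT. The 3 higher groups stood at similar levels, Dgcr8 lay between them and WT, and no knockout library overlapped WT. It rose 3.03-fold in Drosha (log2 1.60, SE 0.26, adjusted p = 0.013 by edgeR), 3.45-fold in Dicer (log2 1.79, SE 0.26, adjusted p = 0.0026) and 3.41-fold in Ago (log2 1.77, SE 0.25, adjusted p = 0.0096). In Dgcr8 the log2 difference was 0.51 (SE 0.25, adjusted p = 0.53). The Drosha call was lost without WT replicate 1 (adjusted p = 0.097) or 2 (0.21), the Dicer call without WT replicate 2 (0.053), and the Ago call without WT replicate 1 (0.066) or 2 (0.18).

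Tnrc6c (ENSMUSG00000025571, chr11:117654289-117763439, plus strand), the other paralog, was not called in any comparison. It had 37.4 and 55.6 CPM in the Dgcr8-labelled libraries, 51.7 and 35.8 in the Drosha-labelled, 41.9 and 38.6 in the Dicer-labelled and 49.4 and 60.3 in the Ago-labelled, against 38.2 and 37.5 CPM in WT. Dgcr8 and Drosha overlapped WT. Dicer lay barely above it, with its lower library at 38.6 CPM beside 38.2 CPM in the higher WT library, and Ago lay further above. The log2 differences from WT were 0.29, 0.21, 0.09 and 0.54 in Dgcr8, Drosha, Dicer and Ago, with SE between 0.30 and 0.31, and the smallest adjusted p was 0.35, in Ago. Tnrc6c carried the 9-base site printed above and Ago3 the 10-base one, and neither gene was called. The Ago3 values rest on as few as 14 reads, and a link between these sites and the footprint levels was not tested.

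**Figure D3:**
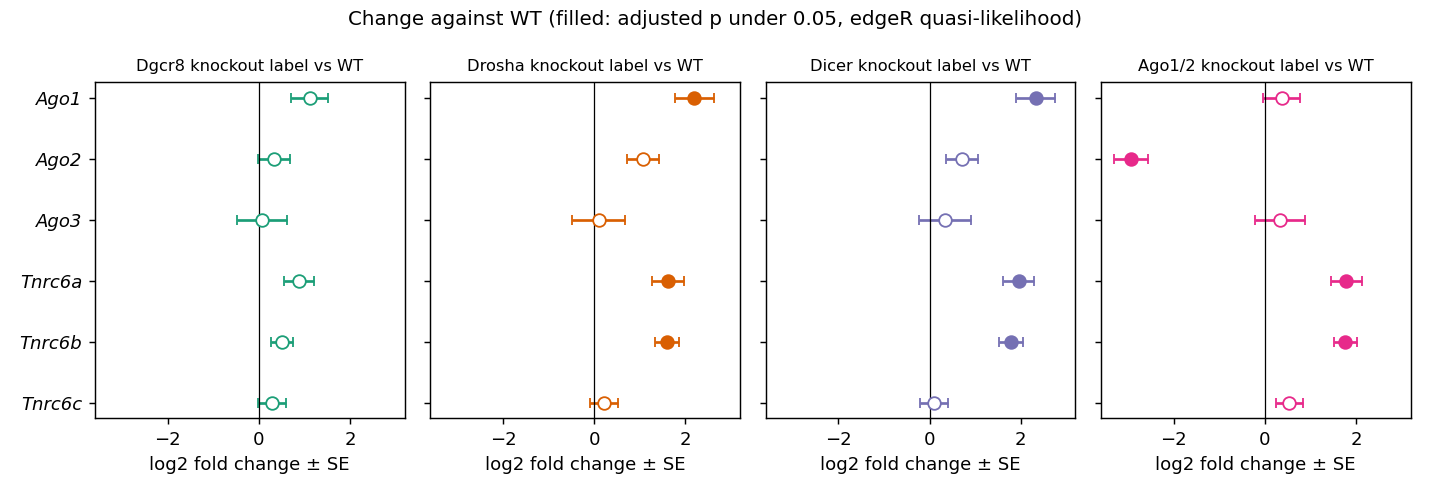
Log2 fold change against WT (x axes, edgeR, with SE as bars) of the 6 genes (y axis) in each knockout label, with filled points for adjusted p under 0.05. Tnrc6a and Tnrc6b lie near each other in every label, up to 1.95 in Dicer, and Ago2 has its lowest value, -2.94 in the Ago-labelled libraries.

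Levels between genes were compared as CPM per kilobase of the longest coding sequence. In WT, Ago2 stood highest among the Argonautes, at 31.7 CPM per kb, beside 5.63 for Ago1 and 4.55 for Ago3, and Tnrc6b highest among the Tnrc6 genes, at 8.17 beside 6.64 for Tnrc6c and 4.33 for Tnrc6a. Shares of the family sum take no account of Ago4. Ago2 made up 24.8 ± 2.05% of the 3 Argonautes in the Ago-labelled libraries, 70.2 ± 3.52% for the Dgcr8 label, 67.9 ± 8.43% for Drosha and 61.0 ± 5.65% for Dicer, against 75.7 ± 1.14% in WT (SD, n = 2 each). Ago1 made up 21.5 ± 6.37% for the Dgcr8 label, 27.0 ± 6.61% for Drosha, 32.7 ± 2.02% for Dicer and 42.55 ± 0.156% for Ago, against 13.4 ± 0.432% in WT. Ago3 made up 32.65 ± 2.21% in the Ago-labelled libraries, against 10.85 ± 1.57% in WT, while its own CPM there overlapped WT.

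Shares within the Tnrc6 family sum to the whole, so a rise of Tnrc6a and Tnrc6b lowers the share of Tnrc6c whatever its own level does, and Tnrc6c itself averaged 46.5 CPM for Dgcr8, 43.8 for Drosha, 40.3 for Dicer and 54.8 for Ago, against 37.8 CPM in WT. Tnrc6c made up 29.1 ± 2.35% of the family sum for the Dgcr8 label, 16.6 ± 1.53% for Drosha, 13.6 ± 0.821% for Dicer and 18.3 ± 0.824% for Ago, against 34.8 ± 2.63% in WT (SD, n = 2 each). The ratio of Tnrc6b to Tnrc6c counts, which does not depend on library size, was 1.63 and 1.18 for the Dgcr8 label, 2.85 and 3.40 for Drosha, 3.78 and 3.83 for Dicer and 3.11 and 2.48 for Ago, against 1.23 and 1.11 in WT. The Dgcr8 ratios overlapped WT and those of the other knockouts lay above it. The ratio of Tnrc6a to Tnrc6c counts was 0.930 and 1.01 for Dgcr8, 1.65 and 1.85 for Drosha, 2.09 and 2.67 for Dicer and 1.37 and 1.69 for Ago, against 0.742 and 0.559 in WT, and here no knockout overlapped WT. The ratio of Ago1 to Ago3 counts, from neighbouring genes, was 1.65 and 4.17 for the Dgcr8 label, 4.93 and 5.79 for Drosha, 3.84 and 8.36 for Dicer and 1.24 and 1.37 for Ago, against 1.41 and 1.10 in WT. The replicates of Dgcr8 and of Dicer stood far apart.

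**Figure D4:**
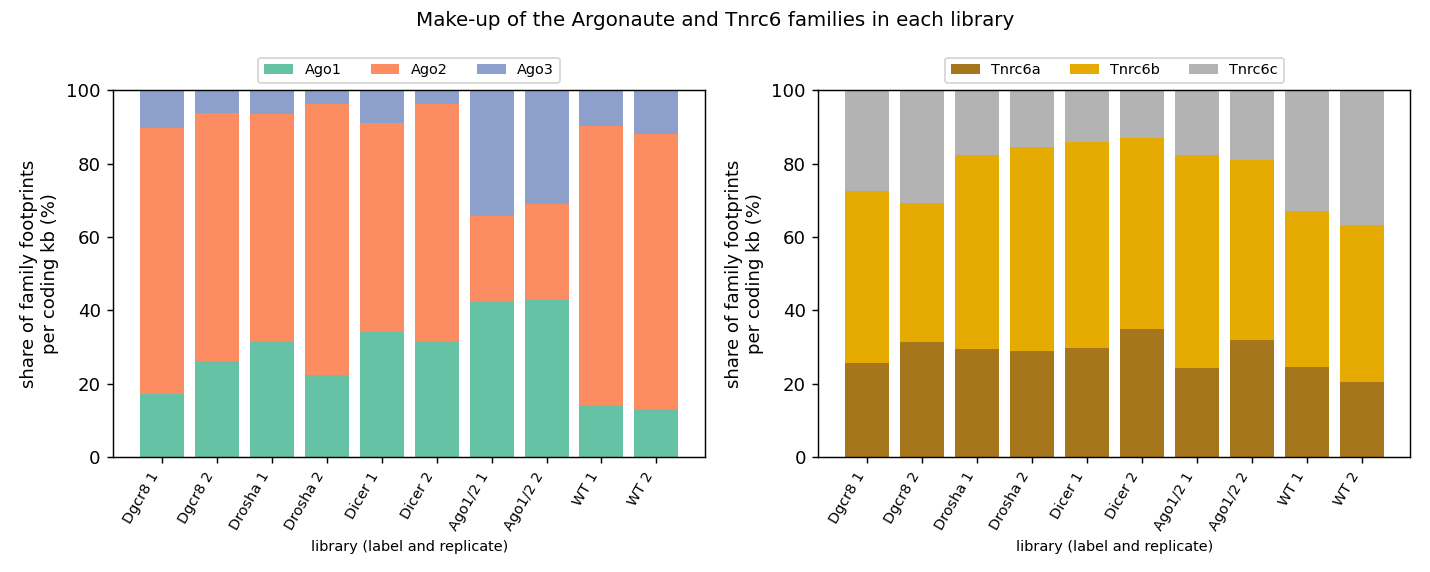
Share of each gene in the summed CPM per coding kb of its family (y axis, percent) in each library by label (x axis), for the 3 measured Argonautes and the 3 Tnrc6 genes. The Ago2 share is 24.8% in the Ago-labelled libraries and 75.7% in WT, and the Tnrc6c share is 13.6% in Dicer and 34.8% in WT.

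Differences between the knockouts were tested directly. The Ago-labelled libraries were set against the mean of the Dgcr8-, Drosha- and Dicer-labelled ones, in which no Argonaute gene is labelled as deleted. Here 0 of the 6 genes were higher and 1 lower, with 0.2% of all genes called higher and 0.082% lower. Ago2 was 12.6-fold lower in the Ago-labelled libraries (log2 -3.65, SE 0.36, adjusted p = 0.0024 by edgeR), and the log2 difference was -4.34 without Ago replicate 1. Ago1 had a log2 difference of -1.51 (SE 0.36, adjusted p = 0.11), which passed with DESeq2 (adjusted p = 0.0023) and without Ago replicate 1 (log2 -2.32, adjusted p = 0.020). Tnrc6a, Tnrc6b and Tnrc6c differed by log2 0.30, 0.47 and 0.34, with adjusted p of 0.75, 0.42 and 0.68.

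The mean of the Dgcr8-, Drosha- and Dicer-labelled libraries was also compared with WT. In this comparison 3 of the 6 genes were higher and 0 lower, with 3.56% of all genes called higher and 2.91% lower. They were Ago1 (log2 1.88, SE 0.37, adjusted p = 0.015 by edgeR), Tnrc6a (log2 1.49, SE 0.30, adjusted p = 0.016) and Tnrc6b (log2 1.30, SE 0.22, adjusted p = 0.0097). Ago2 had 0.71 (adjusted p = 0.18), Ago3 0.17 (0.87) and Tnrc6c 0.20 (0.69). Each of the 3 calls was lost without WT replicate 1 (adjusted p of 0.13, 0.11 and 0.10) and without WT replicate 2 (0.23, 0.29 and 0.21).

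The Dgcr8-labelled libraries, in which the Dgcr8 count went against the label, were set against the mean of Drosha and Dicer. Of the 6 genes 0 were higher and 1 lower, with 0.774% of all genes called higher and 2.11% lower. Tnrc6b was 2.27-fold lower in the Dgcr8-labelled libraries (log2 -1.19, SE 0.23, adjusted p = 0.020 by edgeR). This call was lost without Dgcr8 replicate 1 (adjusted p = 0.13) or 2 (0.060) or Dicer replicate 1 (0.091). Ago1 and Tnrc6a had log2 differences of -1.15 (adjusted p = 0.13) and -0.91 (adjusted p = 0.14), and no Dgcr8-labelled library overlapped the Drosha and Dicer ones in either. The Ago1 value passed with DESeq2 (adjusted p = 0.041) and without Ago replicate 1 or 2 (0.044 each).

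The other genes of the silencing pathway are given as counts, to be read beside the shares of all genes called, which were 0.0547% higher and 0.0182% lower for Dgcr8, 2.48% and 0.966% for Drosha, 7.35% and 3.76% for Dicer and 1.98% and 0.902% for Ago. With lists of 19 to 23 genes, nothing particular to a list is read from them. Of 22 genes of microRNA processing and loading tested, which include Dgcr8, Drosha and Dicer1, 1 was higher and 0 lower for the Dgcr8 label against WT, 1 and 1 for Drosha, 1 and 3 for Dicer and 2 and 0 for Ago. The list's median log2 fold change was 0.13, -0.0080, 0.0014 and 0.17 in that order. The higher call in each of the 4 comparisons included Dgcr8, with the values given above, and the lower call in Drosha was Drosha itself. The others were Dicer1, lower in Dicer, Hspa8, a chaperone that helps load Argonaute, higher in Ago (log2 1.56, adjusted p = 0.043 by edgeR), and Lin28a, which binds let-7 precursors (log2 -3.33, adjusted p = 0.0099), and the Hsp90 cochaperone gene Fkbp5 (log2 -1.18, adjusted p = 0.019), both lower in Dicer. Lin28a had 2.77 and 16.5 CPM in the Dicer-labelled libraries, against 71.7 and 98.1 CPM in WT, and its log2 difference was -2.35 without Dicer replicate 1 (adjusted p = 0.065) and -4.94 without replicate 2. Of 19 decapping genes, 0 were higher and 1 lower in Dicer, Lsm4 (log2 -1.14, adjusted p = 0.019), and none was called in the other 3 comparisons with WT. The median log2 fold change of the decapping genes was -0.07, -0.20, -0.18 and -0.21 in Dgcr8, Drosha, Dicer and Ago. The calls of Hspa8, Lin28a, Fkbp5 and Lsm4 were lost without WT replicate 2, with adjusted p between 0.072 for Lin28a and 0.43 for Hspa8. Those of Hspa8, Fkbp5 and Lsm4 were also lost without WT replicate 1 (0.14, 0.11 and 0.11). Leaving out a knockout library ended the call of Hspa8 without Ago replicate 2 (0.15) or Drosha replicate 1 (0.052), of Fkbp5 without Dicer replicate 1 or 2 (0.16 and 0.099), and of Lsm4 without Dicer replicate 1 or 2 (0.19 and 0.083).

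Among 20 deadenylase genes tested, Cnot6, a catalytic subunit of CCR4-NOT, was the 1 called, for the Drosha and Dicer labels. The median log2 fold change of the list was -0.03, 0.12, 0.07 and -0.14 for Dgcr8, Drosha, Dicer and Ago. It had 24.4 and 20.9 CPM in the Dgcr8-labelled libraries, 57.5 and 52.0 for Drosha, 66.6 and 67.3 for Dicer and 46.1 and 19.0 for Ago, against 14.8 and 17.8 CPM in WT. It rose 3.35-fold in Drosha (log2 1.74, adjusted p = 0.034 by edgeR) and 4.09-fold in Dicer (log2 2.03, adjusted p = 0.0080), with 0.99 on the log2 scale in Ago (adjusted p = 0.17). The Drosha call was lost without any 1 of the 6 Drosha, Dicer and WT libraries (adjusted p of 0.051 to 0.23) and the Dicer call without Dicer replicate 1 (0.051) or WT replicate 1 (0.077) or 2 (0.076).

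Of 23 Argonaute partners and regulators, 1 was higher and 1 lower for Drosha, 3 and 0 for Dicer and 1 and 0 for Ago, and 0 were called for Dgcr8. The list's median log2 fold change was 0.05, -0.01, 0.09 and 0.15 for Dgcr8, Drosha, Dicer and Ago. Ankrd52 was the one called in 3 of the comparisons. Ankrd52 encodes a regulatory subunit of protein phosphatase 6, which in human cells removes phosphates that casein kinase 1 alpha puts on AGO2. It had 15.6 and 46.2 CPM in the Dgcr8-labelled libraries, 133 and 142 for Drosha, 141 and 120 for Dicer and 139 and 123 for Ago, against 15.0 and 16.4 CPM in WT. It rose 8.76-fold in Drosha (log2 3.13, adjusted p = 0.011 by edgeR), 8.31-fold in Dicer (log2 3.06, adjusted p = 0.0026) and 8.34-fold in Ago (log2 3.06, adjusted p = 0.0096), and had a log2 difference of 0.94 in Dgcr8 (adjusted p = 0.48). The Drosha call was lost without WT replicate 1 (adjusted p = 0.066) or 2 (0.16), and the Ago call without WT replicate 1 (0.063) or 2 (0.17). In Dicer 17 of 17 alternatives kept the call.

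Others of that list gave single calls. Ppp6c, the catalytic subunit of the same phosphatase, was 1.99-fold higher in Dicer (log2 0.99, adjusted p = 0.045 by edgeR). This was lost without either Dicer or either WT library or Drosha replicate 2, with adjusted p between 0.052 and 0.26, and under total-count scaling (0.052). Mov10, a helicase bound to Argonaute, was 3.38-fold higher in Dicer (log2 1.76, adjusted p = 0.010), a call lost without Dicer replicate 1 (0.070) or WT replicate 1 (0.11) or 2 (0.074). P4ha1, a subunit of the prolyl hydroxylase that acts on Ago2 in human cells, was lower in Drosha (log2 -2.35, adjusted p = 0.034), a call lost without either Drosha library (0.093 and 0.17) or either WT library (0.15 and 0.21). Csnk1a1, the kinase, was not called, with log2 differences between -0.22 in Ago and 0.09 in Dicer.

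Likeness between patterns was measured as the mean absolute difference of log2 CPM over the 10 libraries, after each gene's own mean was taken off, and is a description of libraries that share depth and group. Of the pairs of the 6 genes, Tnrc6a and Tnrc6b were closest, at 0.20, and Ago2 and Tnrc6b farthest, at 1.39. Ago1 lay 0.61 from Tnrc6a and 0.65 from Tnrc6b. Among 8502 other genes compared, the nearest to Ago1 were Arap2 (0.22), Shroom4 (0.26) and Stx3 (0.31), and the nearest to Ago2 were Ptpn14 (0.47), Anxa3 (0.60) and Tinagl1 (0.64). Cc2d1a (0.17), Kat2b (0.19) and Bcor (0.20) were nearest to Tnrc6a, and Cep55 (0.17), Kmt2e (0.18) and Spryd3 (0.20) to Tnrc6b. For Ago3 they were Usp30 (0.17), BC067074 (0.19) and Tmppe (0.20). Tnrc6c, whose own mean deviation was 0.24, had Tiam1 (0.10), Zfp7 (0.11) and Cdca2 (0.11) nearest.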

How the data were processed

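Ribosome footprints of 10 mouse E14 libraries were analysed. Per the submitters' processing notes, Trimmomatic, Bowtie2 and the builds mm10 (GRCm38) and dm6 (BDGP6) were used. The counting tool, annotation and strand setting are not given in the sources used here, so reads from paralogs and from genes that overlap, also on the opposite strand, cannot be told apart. The deposited table, made by the authors, holds raw read counts for each gene, without normalization, and spike-in counts were not used here. Columns were matched by library number. The Ago columns carry other replicate numbers than their titles, whose numbers were used. Total counts are given with the results, and PCR copies are not independent molecules.

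Counts were tested in R 4.3.3 with edgeR 4.0.16 (TMM scaling, filterByExpr, 1 mean per group over all 10 libraries, quasi-likelihood F test, 2-sided, Benjamini-Hochberg over 10978 genes, 33 filtered). There were 7 comparisons and 5 residual degrees of freedom. Dividing the size of the log2 fold change by the root of F gave the SE. CPM used the scaled library sizes, and log2 CPM a prior count of 2. Coding lengths and 3' UTRs came from GENCODE on GRCm38, and seed sites, searched on the coding strand, are the reverse complement of bases 2 to 8, of which 11 of 12 named microRNAs were matched. DESeq2 1.42.0, other scalings and filters, blocks and each library left out were tried. The test code was run on counts simulated from the fitted spread, without batch effects, which does not show how the tests do on these libraries. Members and lists were chosen with earlier results of these data known. Named are the members, the targeted genes, the 3 nearest genes to each member with at least 10 CPM, and up to 3 called genes per list and comparison. Csnk1a1 and the shared sequence stretches were chosen after their values were seen.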

Additional observations from a re-analysis of the deposited data

Results flagged for a closer look

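The difference between knockouts passed its own test for 2 genes, edgeR's contrast between the groups. Ago2 was lower in the Ago-labelled libraries than in the mean of the Dgcr8-, Drosha- and Dicer-labelled ones, by -3.65 on the log2 scale (adjusted p = 0.0024), with both Ago-labelled libraries below all 6 of the others. Since Ago2 is named in the label of that group, the difference also checks the label. Tnrc6b was lower in the Dgcr8-labelled libraries than in the mean of Drosha and Dicer, by -1.19 on the log2 scale (adjusted p = 0.020), with both Dgcr8-labelled libraries below all 4 of the others. The Dgcr8 gene itself had 145 and 146 CPM in the libraries labelled as its knockout, against 32.7 and 33.1 CPM in WT, and whether that bears on the Tnrc6b difference was not tested.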

How the results depend on the processing

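Each comparison was recomputed under settings chosen with the design, and under 2 added after the data were seen. The added ones were a block for the library number, and Ago against the mean of Drosha and Dicer alone. In the order Dgcr8, Drosha, Dicer, Ago and the mean of 3 against WT, Ago against the mean of 3, and Dgcr8 against Drosha and Dicer, edgeR called 8, 378, 1220, 316, 711, 31 and 317 genes. DESeq2 called 160, 972, 1874, 932, 1356, 262 and 777. The replicate block gave 14, 770, 1877, 738, 1313, 114 and 600. Nothing in the labels says that a replicate number marks a shared batch. For Ago the numbers are those of the titles, whereas the column headers carry others, so the block and the pairs with Ago depend on that choice. Differences between replicates correlated at 0.061 to 0.287 over the 10 pairs of groups, all 10 above 0 and 9 above 0.1. Whether libraries of the same replicate number share an effect was not tested. A fit of the groups compared alone gave 0 in Dgcr8, 3224 in Dicer, 536 in Ago against WT and 5 in Ago against the mean of 3. The mean of Drosha and Dicer alone against WT gave 1291. With 1 library left out the counts ran from 0 to 107, 1 to 514, 139 to 1503, 3 to 494, 1 to 1003, 2 to 127 and 11 to 402, the lone library being assumed to vary like the other groups. For these differences the cause was not tested.

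Uncalled values changed sign as follows (log2 scale). Ago3 against WT was -0.093 in Dgcr8 and -0.0087 in Drosha with the replicate block, and -0.047 in Dgcr8 with the library number block. With 1 library left out it ran from -0.36 to 0.36 in Dgcr8, -0.17 to 0.33 in Drosha, -0.60 to 0.83 in Dicer, -0.59 to 0.89 in Ago and -0.14 to 0.34 in the mean of 3, from -0.76 to 0.72 in Ago against the mean of 3, and from -0.58 to 0.34 in Dgcr8 against Drosha and Dicer. Ago1 in Ago against WT ran from -0.44 to 0.90. Tnrc6c ran from -0.018 to 0.55 in Dgcr8 and -0.079 to 0.46 in Drosha against WT, and from -0.17 to 0.40 in Dgcr8 against Drosha and Dicer. Tnrc6a in Ago against the mean of 3 ran from -0.026 to 0.56, and was -0.0051 against Drosha and Dicer alone. Calls of the 6 genes were lost by leaving out libraries and by no other setting run. Ago3 had 14 reads in Dicer replicate 2, and 309 and 264 in the Ago-labelled libraries, whose CPM also differed, at 21.9 and 7.82.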
